A study of Mus musculus with 24 samples.

Results

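The 10 genes described here encode acute-phase proteins and mediators of innate inflammation: Lcn2, Saa3, Serpina3n, Hp, S100a8, S100a9, Il6, Il1b, Socs3 and Il1rl1. They are 10 of the 24239 genes in the table of normalized counts, each matched by its symbol to a single row. They were chosen by role, and by the higher level of Lcn2 in cSirt5-/- hearts following transverse aortic constriction (TAC, a clip that narrows the aortic arch and overloads the left ventricle). That comparison is therefore a description without a test for all 10 genes, and Lcn2 was tested in control hearts only. RNA of whole hearts from male mice was sequenced 12 weeks after surgery, with 6 hearts in each of 4 groups: cSirt5-/- TAC, cSirt5-/- Sham, control TAC and control Sham. The cSirt5-/- mice (cSirt5KO in the sample labels) combine a floxed Sirt5 allele with Myh6-cre, which drives recombination in cardiomyocytes. The controls are transgenic mice without recombinase, so that a Cre effect and the loss of Sirt5 cannot be told apart, and the age at surgery is not given in the sources used here. In whole-heart RNA, fewer cells of a type and less RNA per cell cannot be told apart either.

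In the acute-phase response, interleukin-6 (Il6) and interleukin-1β (Il1b) raise the transcription of secreted defence proteins, in the liver and also in other tissues. Interleukin-6 acts through gp130 and the transcription factor STAT3, which also induces Socs3, a feedback inhibitor of the same receptor. Interleukin-1β acts mainly through NF-kappaB, and C/EBP factors serve both cytokines at acute-phase promoters. Lcn2 encodes lipocalin-2, which binds bacterial siderophores that carry iron. Saa3 encodes a serum amyloid A made mainly outside the liver, Serpina3n a secreted serine protease inhibitor, and Hp haptoglobin, which binds free haemoglobin. S100a8 and S100a9 encode the subunits of calprotectin, abundant in neutrophils and monocytes, and Il1rl1 encodes ST2, the receptor of interleukin-33, in a membrane and a soluble form that counts per gene do not separate.

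The reads recovered from the normalized counts summed to 22523629 to 35834826 per heart. Control TAC replicate 2, the heart with the most reads, held 23.4% of them in ribosomal RNA, against 0.51% to 4.19% in the other hearts. Sirt5, the check of the labels, was at 85.6 to 259 normalized counts in the 6 cSirt5-/- Sham hearts and at 95.8 to 139 in 4 of the 6 cSirt5-/- TAC hearts. The hearts labelled cSirt5-/- TAC replicates 2 and 4 held 886 and 499, against 388 to 807 in the 12 control hearts, so their Sirt5 level goes against their label. The log2 differences of the 10 genes between genotypes following TAC in limma and the calls of other genes are given with and without this pair. Those from cSirt5-/- Sham hearts are given without it for some genes only, and DESeq2 and edgeR were run with it only. The labels carry a number for each heart, called its animal number here, and these numbers fall into a lowest, a middle and a highest range that are spread unevenly over the groups. The cSirt5-/- TAC group holds replicates 1 and 2 from the lowest range and replicates 3 to 6 from the middle range. The cSirt5-/- Sham hearts hold 2 from the middle and 4 from the highest range, the control TAC hearts 4 from the lowest and 2 from the highest, and the control Sham hearts 4 from the lowest and 2 from the middle. What the ranges stand for is not stated in the labels. The libraries also form 2 sets of 10 and 14 by their share of antisense reads, with 2 to 4 hearts of each group in the first.

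The windows of 250 bases before the RefSeq starts of 7 of these genes hold letters that STAT, C/EBP or NF-kappaB factors are known to bind, and the following stretches show them for genes the results turn on. Coordinates are those of GRCm38.p6, the build of the RefSeq table, and the capitals mark the matched letters. The Lcn2 stretch (chr2:32387923-32387980, minus strand) and the Saa3 stretch (chr7:46715743-46715800, minus strand) each hold a C/EBP match, in Saa3 in the reverse orientation. The Serpina3n stretch (chr12:104406512-104406571, plus strand) holds a kappaB match. The Il6 stretch (chr5:30012961-30013104, plus strand) holds a C/EBP match in reverse and a kappaB match that do not overlap. The Socs3 stretch (chr11:117969487-117969545, minus strand) holds a STAT match that fits the searched letters in both orientations.
Lcn2: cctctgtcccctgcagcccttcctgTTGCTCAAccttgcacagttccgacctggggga
Saa3: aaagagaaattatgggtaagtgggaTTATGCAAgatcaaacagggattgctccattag
Serpina3n: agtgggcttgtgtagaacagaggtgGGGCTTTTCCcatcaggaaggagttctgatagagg
Il6: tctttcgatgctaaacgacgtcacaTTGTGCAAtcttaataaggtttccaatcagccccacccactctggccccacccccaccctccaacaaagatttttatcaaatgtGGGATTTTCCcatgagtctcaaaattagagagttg
Socs3: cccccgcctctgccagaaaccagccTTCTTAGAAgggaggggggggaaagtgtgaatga
The searched letters were TTCNNNGAA for STAT, TTGCNNAA for C/EBP and GGGNNTTNCC for kappaB, on both strands. Of the 10 starts listed for 9 of these genes, 1 held the STAT letters, 5 the C/EBP letters and 2 the kappaB letters. Among all 32851 mouse starts in the table, 7.0% held the STAT letters, 9.6% the C/EBP letters and 4.1% the kappaB letters. A match describes the window and is not evidence that a factor was bound in these hearts.

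Lcn2 (ENSMUSG00000026822, chromosome 2 of GRCm39, 32274645 to 32278264, minus strand) was higher in 4 of the 6 cSirt5-/- TAC hearts than in any other heart. Its normalized counts were 107, 111, 464, 1126, 417 and 484 in cSirt5-/- TAC replicates 1 to 6, against 121, 74.5, 61.2, 26.0, 85.6 and 68.3 in cSirt5-/- Sham replicates 1 to 6. Replicates 3 to 6, the 4 highest, carry animal numbers of the middle range, and replicates 1 and 2 lay inside the range of the cSirt5-/- Sham hearts. The log2 difference was 2.29 with a standard error of 0.51, given as a description, and 2.24 without the pair of hearts whose Sirt5 was at control level. In control hearts Lcn2 was at 101, 118, 88.7, 88.0, 242 and 136 normalized counts following TAC, against 106, 121, 15.2, 25.7, 38.8 and 19.4 following Sham. All control TAC hearts lay above the 4 low control Sham hearts, and 2 of 6 lay above all of them. Lcn2 rose with TAC in control hearts, with a log2 fold change of 1.58 (SE 0.51, adjusted p = 0.0438 from limma over all genes, n = 6 hearts each). The call was lost in edgeR (adjusted p = 0.111) and DESeq2 (adjusted p = 0.105), and without control Sham replicate 3 (log2 fold change 1.31), control Sham replicate 6 (1.38) or control TAC replicate 5 (1.38), with adjusted p of 0.119 to 0.130. Within the lowest range of animal numbers, 4 control TAC hearts differed from 4 control Sham hearts by 2.03 on the log2 scale, and within the first library set 2 differed from 2 by 0.68 (adjusted p = 0.602). Between genotypes, described only, Lcn2 differed by 1.44 following TAC (1.385 without the pair) and by 0.72 following Sham.

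**Figure D1:**
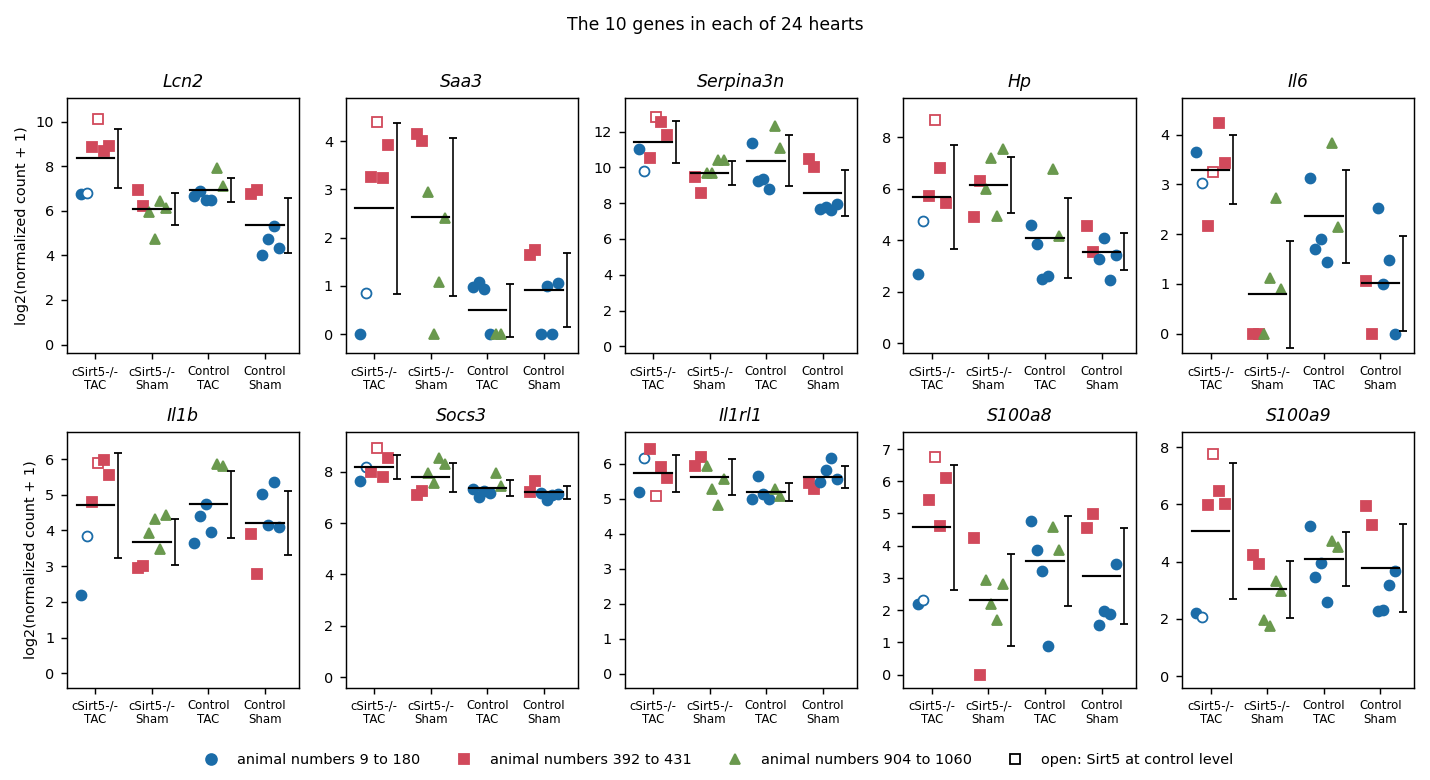
Each point is a heart, on a scale of log2(normalized count + 1), with the group mean as a line and the SD as a bar beside it (n = 6), for the 10 genes in the 4 groups. Colours and shapes give the range of animal numbers, open symbols the cSirt5-/- TAC hearts with Sirt5 at control level. Lcn2 and S100a9 were highest in cSirt5-/- TAC replicates 3 to 6, and Hp was higher in all cSirt5-/- Sham hearts than in any control Sham heart.

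S100a8 and S100a9, the calprotectin genes, split the cSirt5-/- TAC hearts in the same way as Lcn2. S100a9 (ENSMUSG00000056071, chromosome 3, 90599939 to 90603028) had 3.57, 3.18, 61.2, 213, 87.7 and 64.2 normalized counts in cSirt5-/- TAC replicates 1 to 6, against 36.5, 10.1, 14.6, 5.08, 25.6 and 21.5 in control TAC replicates 1 to 6. Replicates 3 to 6 lay above every control TAC heart, and replicates 1 and 2 lay below all of them. The log2 fold change between genotypes following TAC was 0.99 (SE 0.80) and did not pass the test in limma (adjusted p = 0.548), while DESeq2 on recovered reads gave 1.93 (adjusted p = 0.0799). Without the pair of hearts whose Sirt5 was at control level limma gave 1.08 (adjusted p = 0.585). S100a9 ranged from 2.36 to 17.9 normalized counts in cSirt5-/- Sham hearts (median 7.96) and from 3.80 to 59.8 in control Sham hearts (median 9.99). The 2 highest control Sham hearts, at 59.8 and 37.8, also carry animal numbers of the middle range. S100a8 (ENSMUSG00000056054, chromosome 3, 90576285 to 90577342) had 3.57, 3.97, 42.2, 108, 23.6 and 67.5 normalized counts in cSirt5-/- TAC hearts. It ranged from 0 to 17.9 in cSirt5-/- Sham, from 0.846 to 25.9 in control TAC and from 1.90 to 30.7 in control Sham hearts. Neither gene passed in any tested comparison in limma, with adjusted p of 0.527 to 0.897, and the interaction of genotype and TAC was 1.79 (SE 1.15) for S100a8 and 1.74 (SE 1.13) for S100a9.

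Serpina3n was the most abundant of the 10 genes per kilobase of exon, at a mean of 906 normalized counts per kilobase in cSirt5-/- TAC, 231 in cSirt5-/- Sham, 497 in control TAC and 141 in control Sham hearts. The gene (ENSMUSG00000021091) lies on chromosome 12 of GRCm39 from 104372988 to 104380588, among close paralogs, so that its counts are uncertain where reads fit more than 1 copy. Serpina3n ranged from 449 to 5122 normalized counts in control TAC hearts (median 1421) and from 196 to 1393 in control Sham hearts (median 235). Control TAC replicates 1, 5 and 6 lay above all control Sham hearts, and control Sham replicates 1 and 2, at 1393 and 1048, stood apart from the other 4 at 196 to 250. Serpina3n rose with TAC in control hearts (log2 fold change 1.77, SE 0.58, adjusted p = 0.0471 from limma). The call was kept in edgeR and DESeq2, but was lost without control Sham replicate 3, 4, 5 or 6 or control TAC replicate 1, 5 or 6, with log2 fold changes of 1.38 to 1.65 and adjusted p of 0.105 to 0.157. In cSirt5-/- TAC hearts it had 2067, 883, 1491, 7231, 5984 and 3602 normalized counts, against 381 to 1360 in cSirt5-/- Sham hearts. Between genotypes the log2 fold change was 1.1 (SE 0.58, adjusted p = 0.316) following TAC and 1.11 (adjusted p = 0.432) without the pair. Following Sham it was 1.1 (SE 0.58, adjusted p = 0.352), but -1.23 within the middle range of animal numbers (2 hearts each) and 2.63 (adjusted p = 0.0602) within the second library set.

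Saa3 (ENSMUSG00000040026, chromosome 7, 46361422 to 46365124) was scarce, with at most 19 reads in a heart. It had 0, 0.795, 8.62, 20.05, 8.48 and 14.2 normalized counts in cSirt5-/- TAC replicates 1 to 6, against at most 1.12 in control TAC hearts, 3 of which held none. The 4 cSirt5-/- TAC hearts of the middle range were again the higher ones. Saa3 rose in cSirt5-/- TAC relative to control TAC hearts, by 2.11 on the log2(normalized count + 1) scale (SE 0.69, adjusted p = 0.0669 from limma). The groups held 52 reads against 3, a ratio of 16.9 with an exact 95% interval of 5.47 to 84.5 that covers counting error only. The call was lost without control TAC replicate 4, 5 or 6 or cSirt5-/- TAC replicate 3, 4 or 6 (log2 fold changes 1.76 to 2.01, adjusted p of 0.111 to 0.193) and without both hearts whose Sirt5 was at control level (adjusted p = 0.166). Following Sham, Saa3 had 16.8, 15.1, 6.70, 0, 1.13 and 4.32 normalized counts in cSirt5-/- hearts, against 0 to 2.36 in control hearts (log2 fold change 1.53, SE 0.69, adjusted p = 0.27).

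Hp (ENSMUSG00000031722, chromosome 8, 110301760 to 110305804) was the gene that separated the genotypes following Sham. It had 29.1, 76.9, 62.2, 144, 29.3 and 185 normalized counts in cSirt5-/- Sham hearts, against 22.4, 10.6, 8.54, 15.8, 4.51 and 9.70 in control Sham hearts. The groups did not overlap, which held for 2.45% of all 24239 genes in this comparison. Hp rose in cSirt5-/- Sham hearts with a log2 fold change of 2.59 (SE 0.72, adjusted p = 0.0629 from limma, higher in 6 of 6 hearts). The call was lost without control Sham replicate 3, 4, 5 or 6 or cSirt5-/- Sham replicate 4 or 6 (log2 fold changes 2.31 to 2.69, adjusted p of 0.106 to 0.160) and with the animal-number range as a covariate (1.05, adjusted p = 0.739). Within the middle range, 2 cSirt5-/- Sham hearts and 2 control Sham hearts differed by 1.55. Following TAC, Hp ranged from 5.35 to 406 in cSirt5-/- hearts (median 46.7) and from 4.57 to 107 in control hearts (median 15.2), and the groups overlapped (log2 fold change 1.59, SE 0.72, adjusted p = 0.21). That comparison passed in DESeq2 (adjusted p = 0.0809), and in limma without control TAC replicate 5 (2.13, adjusted p = 0.0705) or cSirt5-/- TAC replicate 1 (2.19, adjusted p = 0.0462).

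Adipoq, which encodes the adipocyte hormone adiponectin and is 1 of 5 adipocyte markers, was also called in Sham hearts (log2 fold change 2.89, adjusted p = 0.0938). It averaged 27.1 ± 23.8 normalized counts in cSirt5-/- Sham and 1.83 ± 1.81 in control Sham hearts (SD, n = 6 each). The heart labelled cSirt5-/- TAC replicate 4 was highest for Hp (406) and for Adipoq (79.1), and control TAC replicate 5 was the control TAC heart highest for both (107 and 17.3). Other hearts differed: cSirt5-/- TAC replicate 5 had Hp at 109 and Adipoq at 1.89, and replicate 6 had 42.5 and 1.09. The adipocyte lipid droplet genes Cidec (24.8 ± 22.0 in cSirt5-/- Sham and 1.704 ± 1.504 in control Sham hearts, log2 difference 2.83, adjusted p = 0.115) and Plin1 (40.2 ± 31.6 and 6.93 ± 5.77, 2.09, adjusted p = 0.284) did not pass. The sum of the 5 adipocyte markers, 11293 to 16467 in cSirt5-/- Sham and 10538 to 15895 in control Sham hearts, was nearly all Fabp4 (13454 ± 1867 and 12296 ± 1992), which other cells of the heart also express. Of 5 mesothelial markers Msln (2.65, adjusted p = 0.0528) and Lrrn4 (2.11, adjusted p = 0.0784) were called following Sham, higher in cSirt5-/- hearts. Of 6 atrial markers Nppa, a gene that ventricles also express under load, was called (2.10, adjusted p = 0.0328). The atrial genes Myl7 (1844 ± 2389 in cSirt5-/- Sham and 130.4 ± 247 in control Sham hearts), Sln (527 ± 666 and 16.3 ± 36.0) and Bmp10 (563 ± 1320 and 2.45 ± 2.74) did not pass, with adjusted p of 0.147 to 0.236. With the range of animal numbers as a covariate, Adipoq, Msln, Lrrn4 and Nppa were no longer called following Sham. Over all genes, 26 were called there with this covariate and 491 without it. Of the hepatocyte markers 3 of 5 had values, with summed levels of 81.1 to 162 in cSirt5-/- Sham and 47.8 to 103 in control Sham hearts, and none was called. Of 4 lung or airway markers 3 had values, and none was called following Sham. Their sum was 0 to 230 in cSirt5-/- Sham (median 0) and 0 to 1.18 in control Sham hearts. The part of these tissues in the Hp difference was not tested.

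Il6 (ENSMUSG00000025746, chromosome 5, 30218112 to 30224979) was near the limit of detection in Sham hearts, where 3 of 6 cSirt5-/- and 2 of 6 control hearts held no read. It had 11.6, 7.15, 3.45, 8.44, 17.9 and 9.80 normalized counts in cSirt5-/- TAC hearts, against 0, 0, 0, 1.18, 5.63 and 0.864 in cSirt5-/- Sham hearts. The lowest cSirt5-/- TAC heart was exceeded by a single cSirt5-/- Sham heart, and replicates 1 and 2 were not low here, unlike for Lcn2 and S100a9. The log2 difference was 2.50 (SE 0.54) at a pseudocount of 1, 3.07 at 0.5 and 0.92 at 8, so that its size rested on the pseudocount, and it was 1.2 within the second library set. In control hearts Il6 was at 1.69 to 13.2 normalized counts following TAC and at 0 to 4.75 following Sham (log2 fold change 1.34, SE 0.54). It did not pass over all genes (adjusted p = 0.119), but did without control Sham replicate 3 (1.65, adjusted p = 0.0613), control TAC replicate 2 (1.48, 0.0983), control TAC replicate 4 (1.53, 0.0886) or cSirt5-/- Sham replicate 5 (1.34, 0.0842).

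Il1b (ENSMUSG00000027398, chromosome 2, 129206490 to 129213059) passed in none of the tested comparisons in the fit of all hearts, with adjusted p of 0.675 to 0.992. It ranged from 3.57 to 62.2 normalized counts in cSirt5-/- TAC (median 36.2), from 6.71 to 20.7 in cSirt5-/- Sham (median 12.2), from 11.5 to 57.7 in control TAC (median 22.9) and from 5.91 to 39.7 in control Sham hearts (median 16.5). The highest control TAC hearts, replicates 5 and 6 at 57.7 and 55.5, carry animal numbers of the highest range. Genes on the opposite strand overlap Il1b, Il6 and Socs3 in the annotation. The libraries keep strand, but the counting is not described in the sources used here, so a share of such reads cannot be told apart.

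Socs3, the STAT3 target that inhibits gp130 signalling, rose in cSirt5-/- TAC relative to control TAC hearts. The gene (ENSMUSG00000053113) lies on chromosome 11 from 117856905 to 117860873. Socs3 had 200, 288, 254, 477, 223 and 369 normalized counts in cSirt5-/- TAC hearts, against 158, 129, 152, 145, 244 and 173 in control TAC hearts. A single control TAC heart, replicate 5, reached into the cSirt5-/- TAC range. The log2 fold change was 0.82 (SE 0.22, adjusted p = 0.0273 from limma), and the call was kept in edgeR, in DESeq2 and without each heart in turn. It was 0.64 (adjusted p = 0.188) without both hearts whose Sirt5 was at control level, and 0.48 (adjusted p = 0.688) within the first library set (2 hearts each). It was 0.72 within the lowest range, where 2 cSirt5-/- TAC hearts, 1 of them with Sirt5 at control level, stood against 4 control TAC hearts. Following Sham, Socs3 ranged from 134 to 368 in cSirt5-/- hearts (median 216) and from 119 to 198 in control hearts (median 140), with a log2 fold change of 0.58 (SE 0.22, adjusted p = 0.174). The Sham difference passed in DESeq2 (adjusted p = 0.058) and without cSirt5-/- Sham replicate 1 (0.72, adjusted p = 0.0847).

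Il1rl1 (ENSMUSG00000026069, chromosome 1, 40468730 to 40504575) is the receptor gene among the 10, and it was called in no comparison in limma. It ranged from 32.7 to 85.3 normalized counts in cSirt5-/- TAC (median 52.6), from 27.0 to 72.2 in cSirt5-/- Sham (median 53.0), from 30.5 to 49.5 in control TAC (median 33.3) and from 37.8 to 70.3 in control Sham hearts (median 45.02). In control hearts 4 of 6 TAC hearts lay below all Sham hearts, with a log2 fold change of -0.44 (SE 0.26, adjusted p = 0.351). Between genotypes following TAC the log2 fold change was 0.54 (SE 0.26, adjusted p = 0.24), and DESeq2 called it (0.62, adjusted p = 0.0789). Without the pair limma gave 0.59 (adjusted p = 0.342). Il33, the gene of its ligand, averaged 355 ± 236 in cSirt5-/- TAC and 154 ± 47.2 in control TAC hearts (SD, n = 6 each) and did not pass (adjusted p = 0.135, and 0.213 without the pair).

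With calls made at an adjusted p below 0.1 and above 1.5-fold, 2 of 10 genes rose with TAC in control hearts, Lcn2 and Serpina3n, where 7.03% of all genes were called. Following Sham 1 of 9 tested genes, Hp, rose in cSirt5-/- hearts, where 2.03% of all genes were called. Following TAC 2 of 9, Saa3 and Socs3, rose in cSirt5-/- hearts, where 3.25% of all genes were called. Neither stayed called without the pair of hearts whose Sirt5 was at control level (log2 fold change 2.11 in Saa3 and 0.64 in Socs3). Fewer hearts remain there, and over all genes 282 were called without the pair against 787 with it. Without that pair the difference of cSirt5-/- TAC from cSirt5-/- Sham hearts was 2.27 in S100a8, 2.14 in S100a9, 1.78 in Serpina3n and 2.58 in Il6. With the pair it was 2.26 in S100a8, 2.05 in S100a9, 1.73 in Serpina3n and 1.02 in Il1b. It was smaller in Socs3 (0.40), Saa3 (0.18) and Il1rl1 (0.10), and Hp was lower (-0.47). The difference from control TAC hearts without the pair was 1.1 in S100a8 (adjusted p = 0.641) and 1.07 in Hp (adjusted p = 0.551). It was 1.02 in Il6 (adjusted p = 0.493) and -0.11 in Il1b (adjusted p = 0.965), against 0.94 and -0.03 with the pair. The interaction of genotype and TAC called 0 of 9 in limma, where 0.0908% of all genes were called. At an unadjusted p under 0.05 in limma it held 0 of 9, against 2379 of all 24239 genes. In edgeR and DESeq2 it called 0 of 9, against 25 and 268 of all genes. In cSirt5-/- TAC against cSirt5-/- Sham hearts, the comparison named in the choice of the genes, 0.672% of all genes were called and nothing is read from the members there. The median log2 fold change of the 10 genes was 0.49 for TAC in control hearts, against 0.01 for all genes. It was 1.02 between genotypes following TAC and 0.29 following Sham, against 0.00 and 0.02 for all genes. The medians between genotypes include Lcn2, which was described only there. Among the other 9 genes the middle value was that of S100a9 following TAC (0.99) and that of Il1rl1 following Sham (-0.007).

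**Figure D2:**
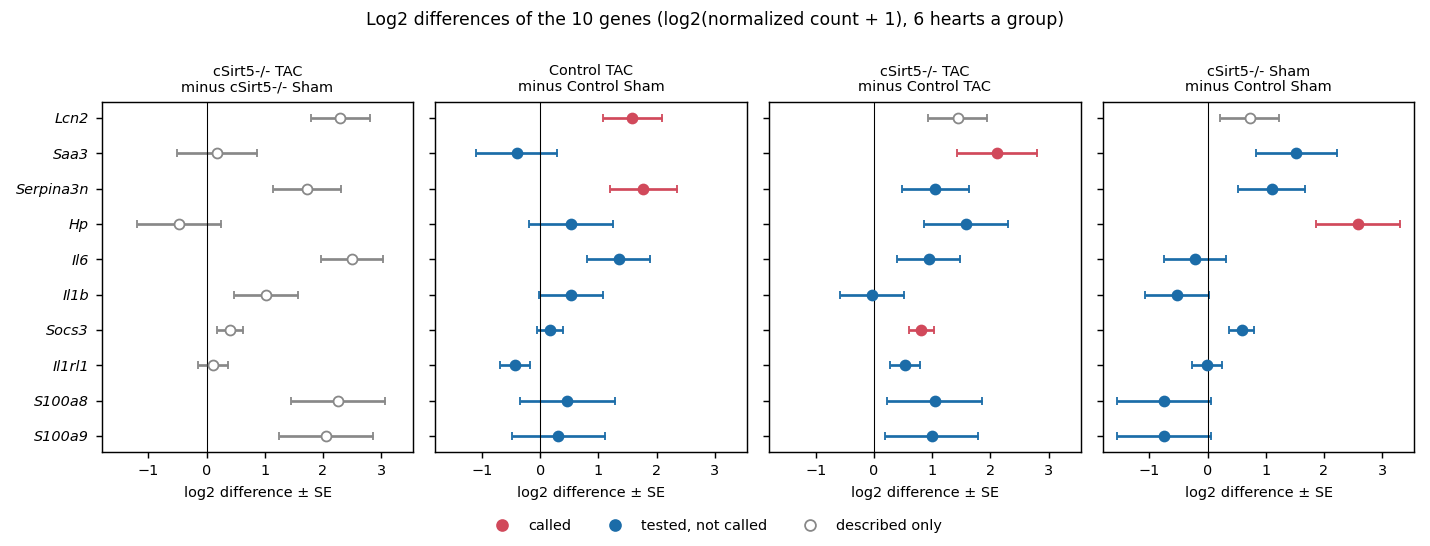
Log2 differences and standard errors of the 10 genes from the limma fit of 24 hearts, in 4 comparisons of 6 against 6 hearts. Filled red points were called, filled blue points were tested and not called, and open points are described only. The called genes were Lcn2 (1.58) and Serpina3n (1.77) with TAC in control hearts, Saa3 (2.11) and Socs3 (0.82) between genotypes following TAC, and Hp (2.59) between genotypes following Sham.

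The range of animal numbers moved with several of these genes. Within the middle range, 4 cSirt5-/- TAC and 2 cSirt5-/- Sham hearts differed by 2.57 in Lcn2, 3.61 in S100a8, 2.48 in S100a9, 2.92 in Serpina3n, 3.27 in Il6, 2.58 in Il1b, 1.14 in Socs3 and 1.05 in Hp on the log2 scale, as a description. Saa3 (-0.38) and Il1rl1 (-0.32) were not higher there, and the 2 cSirt5-/- Sham hearts of this range held the highest Saa3 of their group (16.8 and 15.1). Without the heart labelled replicate 4 these differences were 2.25 in Lcn2, 3.26 in S100a8, 2.08 in S100a9, 2.63 in Serpina3n, 3.28 in Il6, 2.47 in Il1b, 0.94 in Socs3, 0.38 in Hp, -0.6 in Saa3 and -0.1 in Il1rl1. Within the lowest range, where the other 2 cSirt5-/- TAC hearts lie beside 4 control TAC hearts, the difference between genotypes was 0.15 in Lcn2, -0.33 in Saa3, -0.92 in S100a8 and -1.69 in S100a9. Over all 6 hearts a group, these values were 1.44, 2.11, 1.04 and 0.99. For these genes the higher levels in cSirt5-/- TAC than in control TAC hearts thus lay in the middle range of numbers. Socs3 and Il6 were higher in the cSirt5-/- TAC hearts of the lowest range too, by 0.72 and 1.3, as were Serpina3n (0.71), Il1rl1 (0.49) and Hp (0.31). Il1b was lower there (-1.16). Without replicate 2 a single cSirt5-/- TAC heart remains in the lowest range. It differed from the 4 control TAC hearts by 0.12 in Lcn2, -0.75 in Saa3, -0.98 in S100a8, -1.63 in S100a9, 0.45 in Socs3 and 1.62 in Il6. In the other genes it differed by 1.32 in Serpina3n, 0.01 in Il1rl1, -0.72 in Hp and -1.99 in Il1b. Control TAC hearts exist only outside the middle range, so genotype following TAC and the middle range cannot be told apart there. With the range as a covariate over all hearts, Lcn2 (1.92, adjusted p = 0.000109) and Serpina3n (1.57, adjusted p = 0.0129) stayed called with TAC in control hearts, as did Socs3 between genotypes following TAC (0.94, adjusted p = 0.0191), while Saa3 (0.51, adjusted p = 0.692) was lost.

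**Figure D3:**
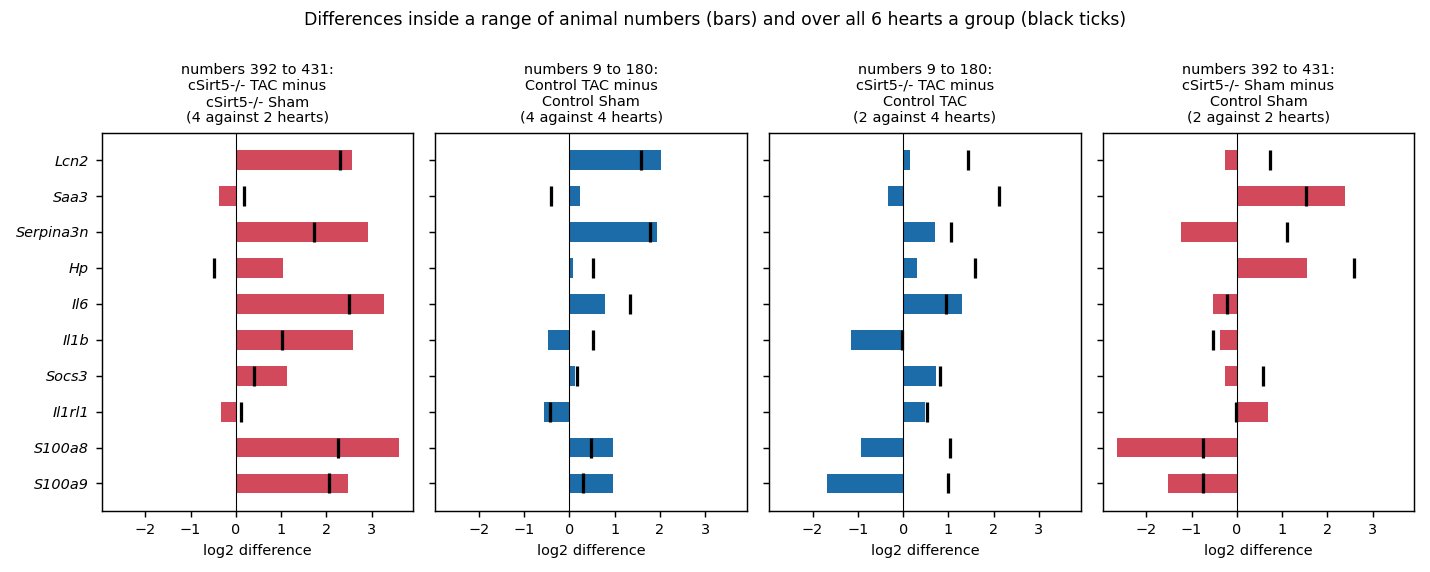
Bars give log2 differences of group means inside a range of animal numbers, black ticks those over all 6 hearts a group, with the number of hearts compared above each panel. In the third panel the bars of S100a8 (-0.92) and S100a9 (-1.69) and their ticks (1.04 and 0.99) lie on opposite sides of 0.

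Deviations from the group mean were compared between genes over the 24 hearts, which share library, depth and the ranges of animal numbers, so that the correlations are descriptions. Lcn2 went with S100a9 (Pearson's r = 0.88), S100a8 (0.73), Saa3 (0.70) and Serpina3n (0.67). Il6 went with none of the first 3, with r of -0.08 for Lcn2, -0.10 for S100a8 and -0.03 for S100a9. Among 10929 other genes with a mean of at least 100 normalized counts, those most like Lcn2 were Slc1a5, a neutral amino acid transporter (0.78), Scly, selenocysteine lyase (0.77), and Gstm4, a glutathione transferase (0.77). Serpina3n was most like Ccdc80, a secreted matrix protein (0.93), Serping1, the C1 inhibitor (0.90), and Timp1, an inhibitor of metalloproteinases (0.88). Hp was most like Dpt, the matrix protein dermatopontin (0.83), Gas6 (0.75) and Mmp19 (0.75), and Socs3 most like the splicing factor gene Puf60 (0.84), Il17rc (0.83) and the zinc transporter gene Slc39a1 (0.82). S100a9 was most like Gpr182 (0.79), Fam214b (0.77) and Slc1a5 (0.75). Il1b was most like Dhx34 (0.80), Colq (0.77) and Lrsam1 (0.72), and Il1rl1 most like Traf6, an adaptor of its receptor family (0.80), Ddhd2 (0.80) and Med23 (0.79).

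**Figure D4:**
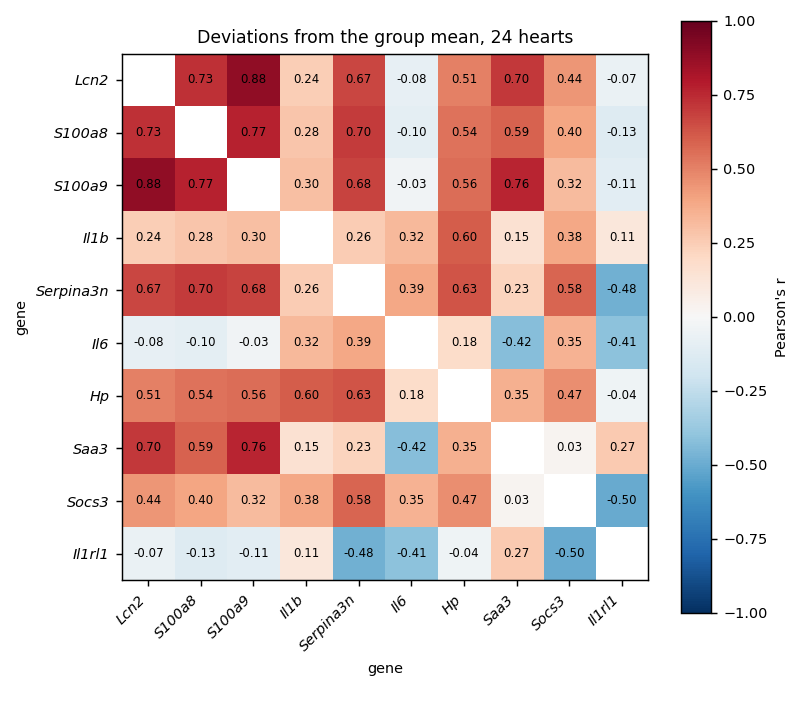
Pearson's r between each pair of the 10 genes, from deviations of log2(normalized count + 1) from the group mean over 24 hearts. The block of Lcn2, S100a8 and S100a9 holds r of 0.73 to 0.88, and the row of Il1rl1 holds values of -0.50 to 0.27.

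Other genes of the same pathways, listed by role, were called in small numbers, to be read against the 7.03% of all genes called with TAC in control hearts, 2.03% between genotypes following Sham and 3.25% following TAC. Among 22 genes of the IL-6 family and STAT3 signalling, Osmr, the oncostatin M receptor, rose with TAC in control hearts (979 ± 192 in TAC and 616 ± 131 normalized counts in Sham, SD, n = 6 each, adjusted p = 0.00404). Ctf1, which encodes cardiotrophin-1, fell (79.6 ± 22.8 in TAC and 177 ± 48.0 in Sham, adjusted p = 0.00117). Cish, another SOCS family gene, rose in cSirt5-/- TAC relative to control TAC hearts (3254 ± 772 and 1860 ± 781, adjusted p = 0.0629). None of the 22 passed following Sham.

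Among 21 genes of the IL-1 family and inflammasome, 2 rose with TAC in control hearts. These were the inflammasome sensor gene Nlrp3 (log2 fold change 0.90, adjusted p = 0.0682) and Il18bp, which encodes a decoy for interleukin-18 (0.77, adjusted p = 0.00211). Pycard, the inflammasome adaptor, rose in cSirt5-/- TAC relative to control TAC hearts (0.82, adjusted p = 0.0162). Among 18 genes of the NF-kappaB pathway and TNF, 4 rose with TAC in control hearts and none passed between genotypes. They were Ptgs2, which encodes cyclooxygenase-2 (1.38, adjusted p = 0.0228), Tnfrsf1b, a TNF receptor (0.67, adjusted p = 0.0153), Nfkbiz (0.60, adjusted p = 0.0175) and Nfkbie (0.59, adjusted p = 0.0747), the last named after its value was seen.

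Of 33 other acute-phase proteins and regulators, 24 had values. With TAC in control hearts 3 rose: the metallothionein gene Mt2 (log2 fold change 1.59, adjusted p = 0.0155), Lbp, the lipopolysaccharide-binding protein (1.00, adjusted p = 0.00647), and Cebpd, a C/EBP factor (0.88, adjusted p = 0.0262). In cSirt5-/- Sham relative to control Sham hearts 3 rose: Mt2 (1.56, adjusted p = 0.0602), Cebpd (0.94, adjusted p = 0.0581) and Cebpb (0.89, adjusted p = 0.054). Cebpb, which encodes the C/EBP factor long linked to acute-phase genes, averaged 1844 ± 564 in cSirt5-/- Sham and 981 ± 245 normalized counts in control Sham hearts (SD, n = 6 each). Following TAC 4 rose in cSirt5-/- hearts. Serpina3g (2.58, adjusted p = 0.0227) and Serpina3i (1.90, adjusted p = 0.0451) are paralogs of Serpina3n and may share reads with it. Serpina3g had 87 reads in cSirt5-/- TAC against 6 in control TAC hearts, a ratio of 14.1 with a counting interval of 6.23 to 39.5. Orm3, an orosomucoid gene (1.36, adjusted p = 0.0499), rested on 18 reads in cSirt5-/- TAC against 2 in control TAC hearts, a ratio of 8.77 with a counting interval of 2.10 to 77.9. Lrg1 (0.72, adjusted p = 0.0671) was named after its value was seen. The median log2 fold change of the 24 was 0.50 between genotypes following TAC and 0.40 for TAC in control hearts, against 0.00 and 0.01 for all genes.

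Among 21 genes of the S100 family and of alarmin or ligand receptors, 19 had values. With TAC in control hearts 3 rose, the Toll-like receptor genes Tlr4 (log2 fold change 0.89, adjusted p = 0.000894), a receptor of calprotectin, and Tlr2 (0.61, adjusted p = 0.041), and Lrp1 (0.87, adjusted p = 0.000949). Tlr4 fell in cSirt5-/- TAC relative to control TAC hearts (555 ± 134 and 816 ± 99.3 normalized counts, SD, n = 6 each, adjusted p = 0.041). Hmox1, which encodes the haem-degrading enzyme haem oxygenase-1, rose in cSirt5-/- hearts following Sham (0.79, adjusted p = 0.073) and following TAC (0.71, adjusted p = 0.0629). Ager (1.76, adjusted p = 0.0578) and S100a13 (0.62, adjusted p = 0.0404) rose in cSirt5-/- Sham hearts. No gene of these 5 lists was called in the interaction of genotype and TAC in limma.

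The list calls differed in how far single hearts carried them. Of the 14 calls with TAC in control hearts, 9 were kept without each heart in turn: Osmr, Ctf1, Il18bp, Lbp, Cebpd, Mt2, Tlr4, Lrp1 and Ptgs2. Of the 8 calls between genotypes following TAC, 2 were kept without each heart, Pycard and Serpina3g. Without the pair of hearts whose Sirt5 was at control level 1 was kept, Orm3 (log2 fold change 1.55, adjusted p = 0.0579). Over all genes, 282 were called in this comparison without the pair and 787 with it. Without that pair Pycard was at 0.69 (adjusted p = 0.104), Serpina3g at 2.11 (adjusted p = 0.162) and Serpina3i at 1.98 (adjusted p = 0.123). Tlr4 was at -0.48 (adjusted p = 0.204), Cish at 0.73 (adjusted p = 0.303), Hmox1 at 0.58 (adjusted p = 0.263) and Lrg1 at 0.54 (adjusted p = 0.301). Of the 6 calls between genotypes following Sham, 0 were kept without each heart in turn in limma, and each was lost without cSirt5-/- Sham replicate 5 and without replicate 6, among others. With the range of animal numbers as a covariate, 8 of 14, 3 of 8 and 0 of 6 stayed called. Over all genes, 1295, 572 and 26 were called with this covariate, against 1705, 787 and 491 without it.

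Markers of leukocytes moved with some of these comparisons. Of 15 neutrophil markers 10 had values, and Mmp8 was called between genotypes following TAC (log2 fold change 1.93, adjusted p = 0.0694) and Csf3r with TAC in control hearts (0.93, adjusted p = 0.0438). Ly6g, a defining marker of neutrophils, was at 0 in 3 of 6 cSirt5-/- TAC hearts and at most 4.35, against 0 in 3 of 6 control TAC hearts and at most 3.3. The summed neutrophil markers were 111 to 333 normalized counts in cSirt5-/- TAC, 88.5 to 232 in cSirt5-/- Sham, 117 to 238 in control TAC and 87.9 to 149 in control Sham hearts. Within the cSirt5-/- TAC group they were 185 to 333 in replicates 3 to 6, of the middle range of animal numbers, and 111 to 141 in replicates 1 and 2, of the lowest range. Of 10 macrophage markers, 3 were called between genotypes following TAC (Itgam, Cd68 and Lyz2) and 5 following Sham (Ccr2, Fcgr1, Lyz2, C1qb and C1qa), all higher in cSirt5-/- hearts. None of the 3 was called without the pair of hearts whose Sirt5 was at control level (adjusted p of 0.16 to 0.204), and none of the 8 with the range of animal numbers as a covariate. Their sums were 13464 to 19117 in cSirt5-/- TAC, 10037 to 17795 in cSirt5-/- Sham, 7374 to 13748 in control TAC and 5982 to 10721 in control Sham hearts. Of 7 mast cell markers 3 were called between genotypes following TAC and 2 following Sham, and of 8 markers of T and NK lymphocytes 2 were called following Sham (Cd3e and Nkg7), all higher in cSirt5-/- hearts. Over all marker lists, 4 of the 8 calls between genotypes following TAC were kept without that pair. They were Mmp8, the mast cell protease genes Mcpt4 and Tpsb2, and the endothelial gene Kdr, which was lower in cSirt5-/- hearts. Over all genes, 282 were called in this comparison without the pair and 787 with it. Of the same 8 calls 2, Mcpt4 and Tpsb2, were kept without each heart in turn. With the range covariate 3 were kept, Mcpt4, Tpsb2 and the mast cell gene Cma1, where 572 of all genes were called. Mmp8 and Kdr were thus lost in both checks. Mmp8 held 52 reads in cSirt5-/- TAC against 7 in control TAC hearts. Of the 14 marker calls following Sham, 6 were kept without each heart in turn and 1, Tpsb2, with the range covariate. Over all genes following Sham, 26 were called with this covariate and 491 without it. The part of leukocyte number in the levels of the 10 genes was not tested.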

How the data were processed

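The deposited values are a signal per gene: counts that the authors divided by DESeq2 size factors, for 24239 genes in 24 hearts. Per the paper and the labels, RNA of whole hearts went into directional libraries, and reads were trimmed with Trim Galore and aligned with STAR to GRCm39. The counting program is not given in the sources used here. The columns of the authors' own comparisons, which hold mean levels, fold changes with standard errors, test statistics and p-values for TAC against Sham in each genotype, were not used. Dividing each library by its smallest positive value gave whole reads to within 2.5e-08 for all values.

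Log2(normalized count + 1) was fitted in limma 3.58.1 (R 4.3.3) with a mean-variance trend, 1 term per group and all 24 hearts, with Benjamini-Hochberg adjustment over all genes. A gene was called at an adjusted p under 0.1 and more than 1.5-fold. The libraries held 22523629 to 35834826 reads, and no gene total was under 10. The labels number each heart separately. Alternatives were edgeR 4.0.16 and DESeq2 1.42.0 on recovered reads, other pseudocounts, scalings and filters, covariates, subsets and leaving out each heart. On simulated data limma called 88% of 2-fold and 100% of 3-fold changes for TAC in control hearts among 24239 genes. The simulation changed 50 genes per fold, all above a minimum level, with a spread set from the level and no ranges of animal numbers. Its rates do not carry over to genes that are scarce or vary more between hearts. Saa3 and Il6 averaged 4.40 normalized counts, and Serpina3n in control TAC hearts had a mean of 1944 and an SD of 1809. The 10 genes, the lists by role and the rule for named genes (up to 3 called genes with the largest change per list and comparison, and the 3 genes most like each of the more abundant members) were chosen with earlier results of these data known. Gene positions come from the GENCODE annotation of GRCm39, which held 24037 of the identifiers. Other steps used Python 3.11.15.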

Additional observations from a re-analysis of the deposited data

Results flagged for a closer look

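Of 40 groups of 6 hearts (10 genes in 4 groups), 7 held a heart whose gap to its nearest neighbour, as a share of the group's range of normalized counts, passed Dixon's critical value. On the log2 scale 0 of 40 did. A rate of about 1 in 20 by chance holds only for normally distributed values in independent groups. Normalized counts need not be normally distributed and the 40 groups share hearts, so the 7 were not compared with chance. The heart labelled cSirt5-/- TAC replicate 4, whose Sirt5 was at control level, stood above its group in Lcn2 (1126 normalized counts, share 0.63) and Hp (406, share 0.741). Control TAC replicate 5 stood above its group in Lcn2 (242, share 0.689) and Hp (107, share 0.82). Single hearts also stood apart in S100a8 (cSirt5-/- Sham replicate 1, 17.9, share 0.626), Il6 (cSirt5-/- Sham replicate 5, 5.63, share 0.79) and Socs3 (control Sham replicate 2, 198, share 0.647).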

How the results depend on the processing

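Of the single values of the 10 genes recomputed, 1781 kept their direction and side of the threshold, 65 turned sign, 43 lost a call, 15 gained one and 16 values without a test moved by over 1 SD, and the interaction called 0 throughout, with the unadjusted and other-tool counts as in the report. With TAC in control hearts 2 genes were called, where 1705 of all genes were called. It was 1 in edgeR, in DESeq2, without a trend and with only the groups compared. Over all genes these settings called 1730, 1790, 1649 and 1801. In library set 1, where 1229 of all genes were called, both genes were lost and the 1 call was Il1b (2.507, adjusted p = 0.0763). Following Sham 1 gene was called between genotypes, where 491 of all genes were called. It was 2 in DESeq2, where 677 of all genes were called. In library set 2, where 1656 of all genes were called, the 2 calls were Serpina3n (2.633, adjusted p = 0.0602) and Socs3 (1.335, adjusted p = 0.0206). Hp was lost there (2.928, adjusted p = 0.191). It was 0 without a trend, with the animal-number range as covariate, in library set 1 and in the middle range. Of all 24239 genes, these settings called 310, 26, 0 and 1, so that few or no calls were possible in the last 3. Following TAC 2 genes were called between genotypes, where 787 of all genes were called. It was 4 in DESeq2 (Socs3, S100a9, Hp and Il1rl1, with no adjusted p for Saa3), where 811 of all genes were called. It was 1 (Socs3) at a mean of at least 10, without a trend, with the range covariate, with only the groups compared, in library set 2 and in the lowest range. Of the genes fitted, these settings called 764, 654, 572, 424, 992 and 151. The count was 0 in library set 1 and without the hearts whose Sirt5 was at control level, where 24 and 282 of all genes were called. Leaving out each heart gave 0 to 3 with TAC in control hearts, 0 to 2 following Sham and 1 to 3 following TAC. A gene called in several tested comparisons is counted once in what follows. The IL-1 list held 3 called genes (5 in DESeq2, 1 in library set 1, 2 to 5 leaving out a heart). The S100 list held 6 called genes (3 with the range covariate, 1 in library set 1, 3 to 8 leaving out a heart). The NF-kappaB list held 4 (2 at a pseudocount of 8 and in library set 1, 1 with the range covariate, 1 to 5 leaving out a heart). The other acute-phase list held 8 called genes, 5 with the range covariate and 3 in library set 1. Library sets and ranges taken alone were chosen after seeing the data, and the causes were not tested.

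Signs turned in values that were not called, apart from Saa3 between genotypes following TAC (-0.327 in the lowest range). With the range covariate, the log2 fold change with TAC in control hearts was 0.484 in Saa3 and -0.031 in Socs3, and the interaction was -1.38 in Saa3, 1.175 in Serpina3n and 0.158 in Hp. The same covariate gave -0.511 in Serpina3n and 0.217 in Il1rl1 following Sham, and -0.016 in S100a8, -0.806 in S100a9 and 0.124 in Il1b following TAC. In the lowest range the values were 0.237 in Saa3 and -0.47 in Il1b with TAC in control hearts (also in library set 2, which holds the same hearts of these groups), and -0.922 in S100a8 and -1.691 in S100a9 following TAC. In the middle range they were -1.233 in Serpina3n, -0.256 in Socs3 and 0.703 in Il1rl1 following Sham. In library set 1 they were -0.54 in S100a8 and -0.99 in S100a9 with TAC in control hearts, -0.897 in Serpina3n, 0.208 in Il1b and 0.473 in Il1rl1 following Sham, and 1.37 in Serpina3n and -0.292 in Il1b for the interaction. In library set 2 they were 0.052 in S100a8, 0.293 in S100a9 and 0.564 in Il6 following Sham, and -0.35 in Socs3 for the interaction. In edgeR and DESeq2 they were -0.108 and -0.14 in S100a9 with TAC in control hearts, 0.179 and 0.177 in Il1b following TAC, 0.024 and 0.031 in Il1rl1 following Sham, and 0.147 and 0.157 in Serpina3n for the interaction. The Serpina3n interaction was also 0.332 with the library set as covariate and 0.01 without the hearts whose Sirt5 was at control level, and Il1b following TAC was 0.052 at a pseudocount of 8. Leaving out each heart moved the Serpina3n interaction over -0.419 to 0.343, Il6 following Sham over -0.603 to 0.087, Il1b following TAC over -0.284 to 0.474, Hp with TAC in control hearts over -0.01 to 0.846 and Il1rl1 following Sham over -0.122 to 0.155.

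With the replicate block, 3 genes were called with TAC in control hearts (Il6 added, adjusted p = 0.0801) and 1 between genotypes following TAC, Saa3 being lost (adjusted p = 0.101). Over all genes 1693 and 753 were called there. Replicate numbers did not pair the hearts: deviations of same-numbered hearts correlated at a median of 0.026 (-0.429 to 0.471 over 36 pairs). Low counts limited Saa3, Il6, S100a8 and S100a9.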
